A study of Mus musculus with 12 samples.

Results

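Cone fate regulators were examined through 6 genes: Thrb, Rxrg, Sall3, Olig2, Dio2 and Dio3. Their members in the data are the differentially methylated regions (DMRs) that overlap one of these genes in the GENCODE M21 annotation of mm10, extended by 5 kb on each side and called a locus below. By this rule 214 of the 786,742 deposited DMRs belong to them, 43 of 193,836 from whole-genome bisulfite sequencing (WGBS) and 171 of 592,906 from bACE-seq. WGBS reads 5-methylcytosine (5mC) and 5-hydroxymethylcytosine (5hmC) together, and bACE-seq reads 5hmC alone. DNA came from whole retina at postnatal day 21 (P21), with 3 Cre- and 3 Tet tcKO libraries for each assay.

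The Tet tcKO mice carry floxed alleles of Tet1, Tet2 and Tet3, deleted by the Chx10-Cre-GFP transgene, which is active in retinal progenitor cells and known to be mosaic, so the Cre+ mice were in-crossed. The controls are age-matched mice from Cre- breeders, labelled WT, and the labels give C57 BL/6J as the strain of all samples. The controls therefore differ from the mutants in the transgene as well as in the Tet genes. Whole retina is a mixture of cell types: a change in cell composition and a change within a cell type cannot be told apart in these levels. The lists hold no expression values, so the tissue label was not checked against marker genes. Each DMR has 1 mean level per group, so neither the spread between libraries nor the read depth behind a level is known, and no difference below was tested against replicates.

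Cones and rods arise from shared photoreceptor precursors. Thyroid hormone directs cones towards M-opsin through TRβ2, a receptor isoform that is made from a start site of its own inside the Thrb gene. Rxrg encodes a retinoid X receptor that pairs with such nuclear receptors and restrains S-opsin. Dio2 converts thyroxine into the active hormone and Dio3 inactivates it. Sall3 is a zinc finger factor needed for S-opsin expression in cones, and Olig2 is a bHLH factor that marks a class of progenitor cells biased towards cones and horizontal cells. The TET enzymes oxidise 5mC to 5hmC, a first step of DNA demethylation.

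All 43 WGBS regions at the 6 loci had a higher level in Tet tcKO, beside 98.6% of all WGBS regions, and all 171 5hmC regions had a lower level, beside 100% of all 5hmC regions after rounding (592,697 of 592,906). Weighted by CpGs, the WGBS level in the regions was 54.1% in Cre- against 71.8% in Tet tcKO, a difference of 17.7 percentage points. The 5hmC level was 16.1% in Cre- against 3.79% in Tet tcKO. The Tet tcKO level was thus 23.5% of the Cre- level, called the share kept below. Over single regions this share had a median of 22.2%, beside 22.6% over all 5hmC regions lower in Tet tcKO. The paper reports that a small part of unmodified cytosines failed to convert in bACE-seq. No level here was corrected for that, so the share kept may include unconverted cytosine. Because each list was called on the difference between these groups, the size and direction of the changes are descriptions of what was selected.

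WGBS regions with a higher level (WGBS gains below) lay at 5 of the 6 loci, beside 76.2% of all 32,093 annotated genes, and 5hmC regions with a lower level (5hmC losses) lay at 6 of 6, beside 88.8% of all genes. Within 2 kb of a start site, 5 of the 6 genes had a WGBS gain and 4 a 5hmC loss, beside 49.5% and 79.4% of all genes. Counted by CpGs, 333 of the 4,876 CpGs of the loci (6.83%) were in a WGBS gain and 1,862 (38.2%) in a 5hmC loss. These shares are pooled over CpGs, and the medians over the 6 loci were 6.09% and 33.1%. The medians over all genes were 6.44% and 36.6%, so that as a group the loci stood near the middle of the genome. Dio2 stood above the upper quartile of all genes for WGBS gains and Rxrg above that for 5hmC losses, whereas Olig2 lay below the lower quartile in both. The shares of single loci moved with the flank and with the regions kept: with flanks of 20 kb, 9.49% of the CpGs at Olig2 were in a WGBS gain and 28.1% in a 5hmC loss.

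**Figure D1:**
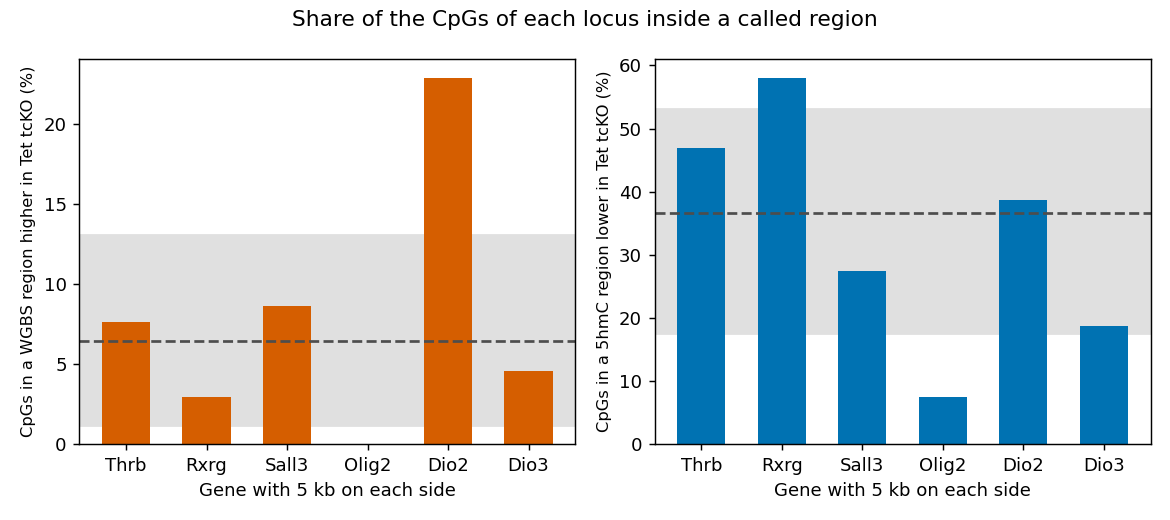
Share of the CpGs of each locus, in percent, inside a WGBS region higher in Tet tcKO (left) and inside a 5hmC region lower in Tet tcKO (right). The dashed line is the median over all 32,093 genes and the grey band spans their quartiles. Dio2 (22.9%) stands above the band for WGBS and Rxrg (58.1%) above it for 5hmC, and Olig2 has no WGBS region.

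The levels spanned a wide range among the loci. The lowest Cre- WGBS level was 5.64% in a region at Sall3 and the highest 91.7% in a region at Thrb. The rises ran from 5.61 to 44.7 percentage points with a median of 18.5, beside a median of 15.4 over all WGBS gains. Thrb, with most of the regions, had a median of 20.6, and Dio2 had 16.7. The medians at Sall3 (13.1) and Dio3 (8.98) and the single rise at Rxrg (14.4) were below that of all WGBS gains. A 5hmC loss overlapped 35 of the 43 WGBS gains (81.4%), beside 81.1% of all WGBS gains. In those 35 regions the WGBS level was 56.7% in Cre- against 74.4% in Tet tcKO, and the 5hmC level of the overlapping regions was 18.1% and 4.42%. Subtracting the second from the first leaves an approximate 5mC level of 38.6% in Cre- and 70.0% in Tet tcKO, where the bounds of the regions in both lists need not coincide. In the other direction, a WGBS gain lay over 30 of the 171 5hmC losses (17.5%), beside 24.1% of all 5hmC losses.

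**Figure D2:**
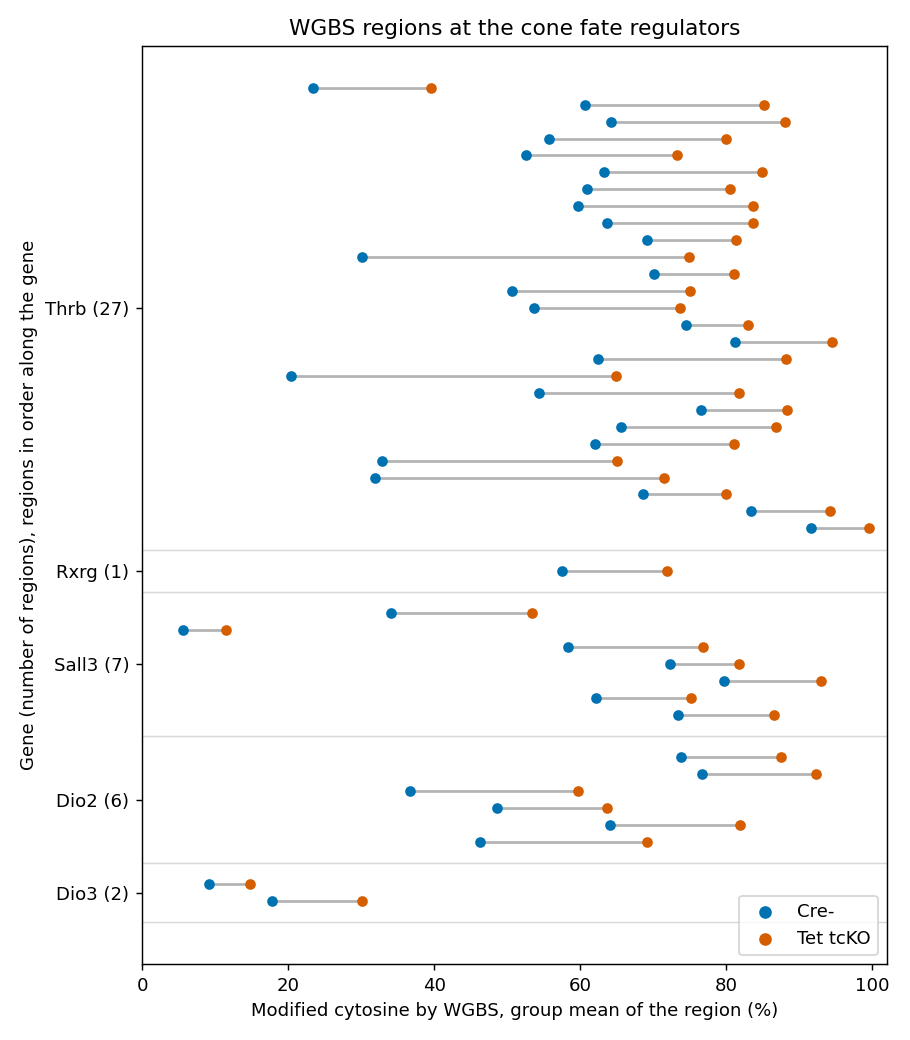
WGBS level of each of the 43 regions, in percent, as the authors' group mean in Cre- (blue) and Tet tcKO (orange), with regions in the order of transcription within each gene. Every orange point lies to the right of its blue point, and the longest lines belong to 3 regions of Thrb that rise by 39.7 to 44.7 points.

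Thrb encodes thyroid hormone receptor beta and lies on the plus strand at chr14:17660261-18038090. It is the longest of the 6 genes at 377,830 bp and held 27 of the 43 WGBS regions and 111 of the 171 5hmC regions. Weighted by CpGs, its WGBS regions rose from 57.2% in Cre- to 78.7% in Tet tcKO, and its 5hmC regions fell from 19.7% to 4.37%. Per CpG the locus was less extreme: 7.61% of its 2,142 CpGs lay in a WGBS gain and 47.0% in a 5hmC loss, and with regions of at least 10 CpGs 1.45% and 24.9%. The 5hmC level in Cre- had a median of 19.9% over the Thrb regions, above the 75th percentile of all 5hmC losses (18.4%). The long intron-rich body is poor in CpGs, at 0.55 per 100 bp over the locus.

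The start sites of Thrb differed. The first, used by Thrb-201 and Thrb-203 with a coding sequence of 461 codons, lies in CpG-dense sequence (155 CpGs within 2 kb on each side). Only 9 of these CpGs (5.81%) were in a WGBS gain and 10 (6.45%) in a 5hmC loss, and no region of either list came within 1,133 bp of the start site. The single WGBS gain there was chr14:17662029-17662809 in intron 1, at 23.4% in Cre- and 39.6% in Tet tcKO. The second start site, 320.6 kb downstream, belongs to Thrb-202 with 475 codons, the transcript of the TRβ2 isoform. It lies in CpG-poor sequence with 36 CpGs within 2 kb, of which 19 (52.8%) were in a WGBS gain and 35 (97.2%) in a 5hmC loss.

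At the TRβ2 start site itself, the region chr14:17981370-17981668 had 5 CpGs and a WGBS level of 76.5% in Cre- and 88.3% in Tet tcKO. It covers the start of the 5′ UTR and the sequence before it, and for the longer transcripts it lies in intron 4. The 3 other WGBS gains within 2 kb were all intronic. Upstream, chr14:17980527-17980719 went from 54.3% to 81.8%. Downstream, chr14:17982363-17982790 went from 65.6% to 86.8% and chr14:17983321-17983512 from 62.0% to 81.0%. The start site thus had the highest Cre- level and the smallest rise of the 4. Another region just outside the window, chr14:17983860-17984171, named here after its values were seen, went from 32.8% to 65.0%. A single 5hmC region, chr14:17981370-17984171 with 34 CpGs, ran from the start site through the downstream gains, at 20.9% in Cre- and 4.00% in Tet tcKO. The antisense gene Gm48321 (chr14:17931138-18021909) overlaps this stretch of Thrb.

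**Figure D3:**
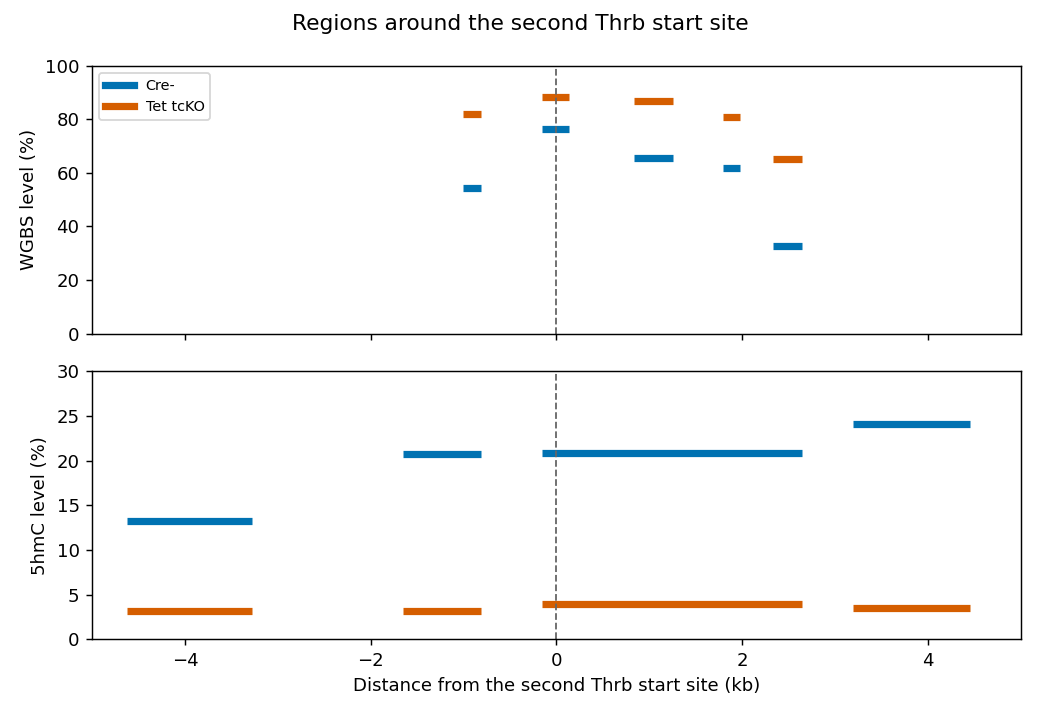
WGBS level (top) and 5hmC level (bottom) of the called regions, in percent, against the distance from the second Thrb start site in kb; each bar spans a region, blue for Cre- and orange for Tet tcKO. All 5 WGBS regions are higher in Tet tcKO, and the 5hmC region over the start site is at 20.9% in Cre- and 4.00% in Tet tcKO.

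The largest rises in Thrb were elsewhere in its introns. The region chr14:17836499-17836687 in intron 2 went from 30.1% in Cre- to 74.8% in Tet tcKO, and chr14:17971966-17972564 in intron 4 from 20.3% to 64.9%. The region chr14:17990225-17991076, also in intron 4, went from 31.8% to 71.5%. These 3 regions rose by 44.7, 44.6 and 39.7 percentage points and had 4, 6 and 7 CpGs, so that each level rests on few sites. No 5hmC loss overlapped the first or the second of them, while the last overlapped one at 25.9% in Cre- and 5.27% in Tet tcKO. Absence from the list does not show that 5hmC was unchanged there.

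Sequences of the part of the TRβ2 region that precedes the 5′ UTR (chr14:17981370-17981528) and of the region with the largest rise (chr14:17836499-17836687) are given from GRCm38, plus strand, with CpGs in capitals. They show how few CpGs carry these levels. The second ends on the C of the region's last CpG, which is therefore in lower case.
TRβ2 start, upstream part: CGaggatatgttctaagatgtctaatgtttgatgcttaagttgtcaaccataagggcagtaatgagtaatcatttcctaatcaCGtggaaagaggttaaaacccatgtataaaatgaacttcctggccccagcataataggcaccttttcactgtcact
Thrb intron 2: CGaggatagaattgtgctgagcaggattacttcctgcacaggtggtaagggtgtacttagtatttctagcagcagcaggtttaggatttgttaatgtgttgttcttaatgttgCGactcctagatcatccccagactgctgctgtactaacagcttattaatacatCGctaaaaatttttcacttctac

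The largest falls of 5hmC in Thrb were in intron 1 at chr14:17665145-17665739, from 36.9% in Cre- to 10.1% in Tet tcKO, and in intron 2 at chr14:17868012-17868618, from 29.1% to 3.93%. The first of these overlaps a WGBS gain at chr14:17664862-17665310 that went from 60.7% to 85.1%. The longest 5hmC region, chr14:17882933-17886495, spanned 3,563 bp and went from 18.8% to 5.70%. Along the gene, the Cre- level of 5hmC in the called regions was 22.1% in the first of 3 equal parts of the gene body, 19.2% in the middle part and 17.9% in the last. The shares of CpGs in a WGBS gain in the same order were 9.33%, 6.57% and 7.73%.

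**Figure D4:**
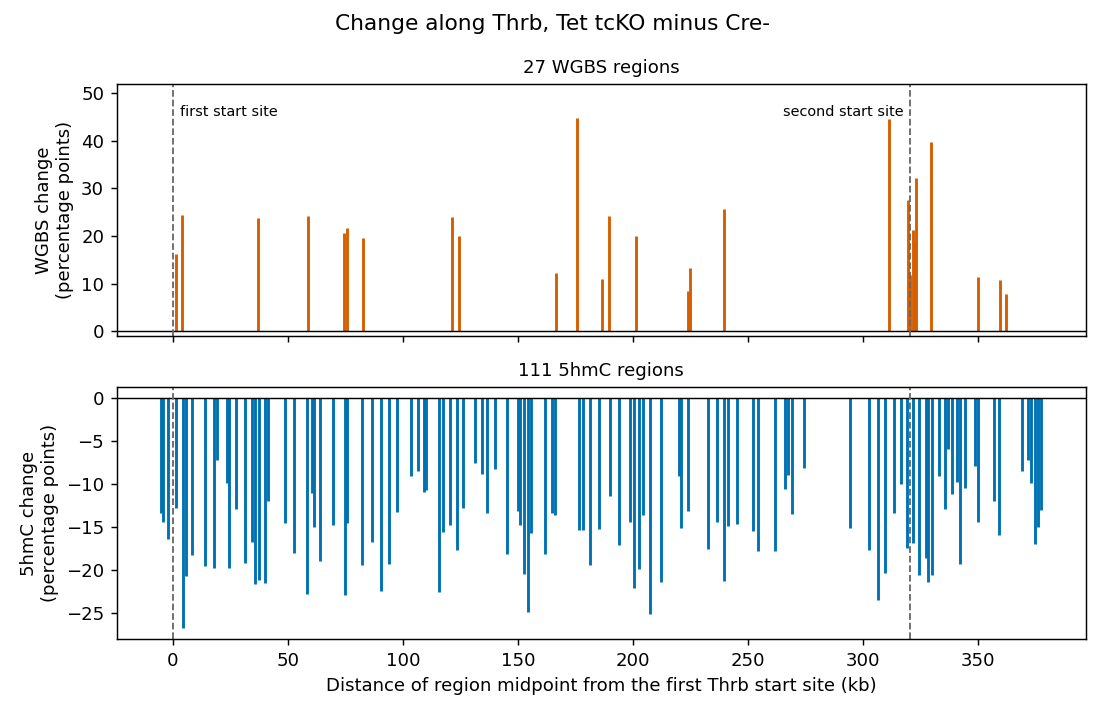
Change in level along Thrb, Tet tcKO minus Cre- in percentage points, for the 27 WGBS regions (top) and the 111 5hmC regions (bottom), against the distance of the region midpoint from the first start site in kb. Dashed lines mark the start sites; 5hmC falls occur along the whole gene, and 5 WGBS rises lie close to the second start site, flanked by rises of 44.6 and 39.7 points.

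Rxrg encodes the retinoid X receptor gamma, at chr1:167598384-167639623 on the plus strand. It had 33 5hmC regions that held 58.1% of its 706 CpGs, the largest share among the 6 loci, but only 1 WGBS region. With regions that differ by at least 10 percentage points its share was 27.9%, below the 40.6% of Thrb. That region, chr1:167618043-167618565 with 21 CpGs, covers the internal start site of the short transcript Rxrg-202 and lies in intron 2 of Rxrg-201. Its WGBS level was 57.5% in Cre- against 71.9% in Tet tcKO. The overlapping 5hmC region chr1:167618043-167620477 went from 17.8% to 2.85%. Around this internal start site 21 of 59 CpGs (35.6%) were in the WGBS gain and 48 (81.4%) in a 5hmC loss. The 3 upstream start sites of the full-length transcripts, which lie close together, had no WGBS gain within 2 kb and 29.5% to 30.4% of their CpGs in a 5hmC loss.

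The part of the Rxrg region that precedes the 5′ UTR of Rxrg-202 (chr1:167618043-167618308, GRCm38, plus strand) is shown because it is the only stretch of the gene where both lists meet, with CpGs in capitals.
Rxrg internal start, upstream part: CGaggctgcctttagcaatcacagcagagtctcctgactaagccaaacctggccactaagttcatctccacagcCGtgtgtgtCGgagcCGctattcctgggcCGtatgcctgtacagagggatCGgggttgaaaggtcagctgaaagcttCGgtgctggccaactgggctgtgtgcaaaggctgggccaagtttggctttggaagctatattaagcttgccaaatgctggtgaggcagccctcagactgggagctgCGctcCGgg

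Among the 5hmC regions of Rxrg, the largest falls were at chr1:167608537-167610342 in intron 1, from 20.0% in Cre- to 3.72% in Tet tcKO, and over the internal start site. The longest, chr1:167599207-167602703, covered 3,497 bp of intron 1 and went from 16.8% to 3.00%. Regions early in the gene had more 5hmC in Cre- than later ones: the level was 18.8% in the first of 3 equal parts of the gene body, 14.1% in the middle part and 10.9% in the last, while the share of CpGs in a 5hmC loss was 58.6%, 62.1% and 62.8%. In Tet tcKO the levels were 4.43%, 3.23% and 3.04%. Thrb and Rxrg, both long genes with an internal start site, thus had a WGBS gain directly over the internal one and none over the first.

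**Figure D5:**
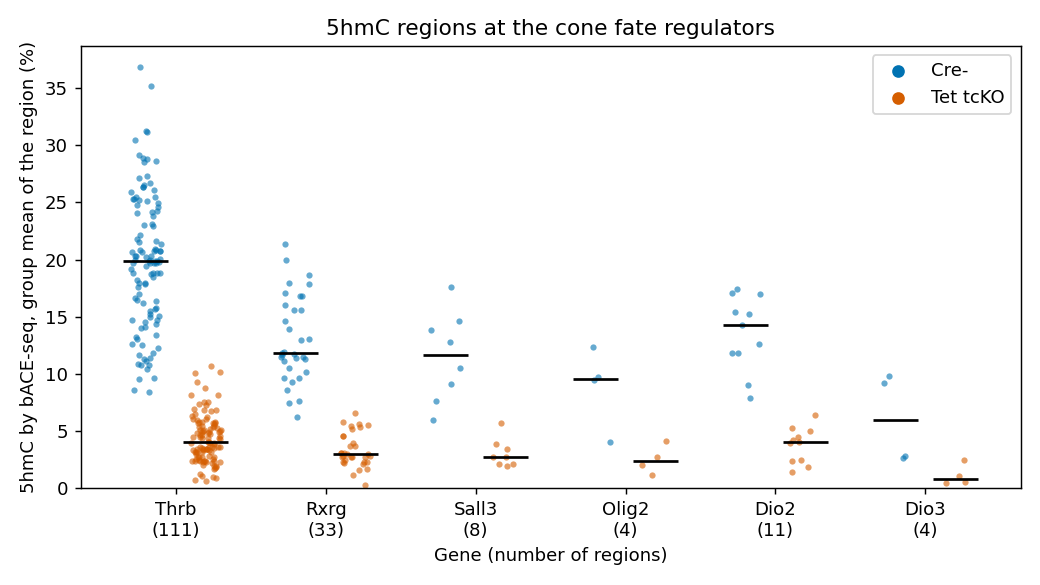
5hmC level of each of the 171 regions, in percent, as the authors' group mean in Cre- (blue) and Tet tcKO (orange), by gene; horizontal lines are medians over regions and points are spread sideways for clarity. The Cre- median falls from 19.9% at Thrb to 5.99% at Dio3, and the Tet tcKO medians lie between 0.831% and 4.01%.

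Dio2 encodes the deiodinase that makes active thyroid hormone and lies on the minus strand at chr12:90724552-90738438. Its 6 WGBS regions held 55 of 240 CpGs (22.9%), the largest share among the 6 loci, and 9.58% when regions had at least 10 CpGs. Near its start site 23 of 51 CpGs (45.1%) were in a WGBS gain and 17 (33.3%) in a 5hmC loss. The region chr12:90737945-90738299 runs from the 5′ UTR through the coding part of exon 1 into intron 1 and has the same bounds in both lists. Its WGBS level was 73.7% in Cre- against 87.5% in Tet tcKO, and its 5hmC level was 15.4% and 6.38%. The share kept, without correction for conversion, was 41.4%, the highest of any 5hmC region at Dio2. A second WGBS region near the start, chr12:90736855-90737244 in intron 1, went from 76.6% to 92.3% and overlapped no 5hmC loss. The noncoding gene Gm26512 starts on the other strand within the first of these regions.

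The sequence of this shared region from the first base after the 5′ UTR (chr12:90737985-90738284, GRCm38, minus strand, read in the direction of Dio2) is shown with CpGs in capitals, since it carries a change in both marks.
Dio2 exon 1 and intron 1: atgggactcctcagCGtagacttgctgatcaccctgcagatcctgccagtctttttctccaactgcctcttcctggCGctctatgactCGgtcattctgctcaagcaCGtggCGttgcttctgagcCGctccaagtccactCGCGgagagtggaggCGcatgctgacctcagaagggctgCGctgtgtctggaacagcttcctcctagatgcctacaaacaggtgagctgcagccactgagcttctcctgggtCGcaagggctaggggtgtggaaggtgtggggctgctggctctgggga

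The largest rises at Dio2 lay away from the start site. The region chr12:90733903-90734351 in intron 1 went from 36.7% in Cre- to 59.6% in Tet tcKO, chr12:90719567-90719899 in the downstream flank from 46.3% to 69.1%, and chr12:90726946-90727429 in the 3′ UTR from 64.1% to 81.8%. All 3 overlapped a 5hmC loss. The largest 5hmC falls were in intron 1, at chr12:90735479-90735810 from 17.4% to 1.88% and at chr12:90732072-90733062 from 17.0% to 4.25%, the latter also the longest at 991 bp.

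Dio3, which encodes the deiodinase that inactivates thyroid hormone, is a short gene of 2,030 bp at chr12:110279068-110281097 in the imprinted Dlk1-Dio3 domain. The levels at Dio3 were low in both marks. Its share of CpGs in a 5hmC loss, 18.8% over the locus, was 46.3% without the flanks. Its 2 WGBS regions went from 9.14% in Cre- to 14.8% in Tet tcKO at chr12:110277383-110277627, upstream of the start site and inside the noncoding gene Dio3os, and from 17.8% to 30.2% at chr12:110282665-110282889 in the downstream flank. Of its 4 5hmC regions, chr12:110279451-110280445 was the longest, with 50 CpGs in the exon, and went from 2.63% to 0.477%. The largest 5hmC falls were in the flanks, from 9.18% to 1.08% at chr12:110284521-110284787 and from 9.80% to 2.42% at chr12:110275148-110275896. Levels this close to 0 are sensitive to incomplete conversion of cytosines, which was not analysed here.

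The upstream Dio3 region (chr12:110277383-110277627, GRCm38, plus strand) is shown as the CpG-dense counterpart of the Thrb sequences, with CpGs in capitals except the last, of which only the C lies within the region.
Dio3 upstream: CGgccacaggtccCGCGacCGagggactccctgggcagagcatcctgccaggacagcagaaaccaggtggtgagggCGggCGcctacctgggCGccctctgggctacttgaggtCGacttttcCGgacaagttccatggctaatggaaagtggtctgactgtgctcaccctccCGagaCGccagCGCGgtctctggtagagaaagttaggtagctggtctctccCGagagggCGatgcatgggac

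Olig2, a gene of 3,221 bp at chr16:91225457-91228677, had no WGBS region in its locus of 496 CpGs, and the nearest lay 13,391 bp from its start site. Its 4 5hmC regions all lay in the downstream flank and held 37 CpGs (7.46%), the nearest 4,031 bp from the start site. The longest, chr16:91231417-91232093, went from 9.71% in Cre- to 2.00% in Tet tcKO. The start site (247 CpGs within 2 kb) had no region of either list.

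Sall3 lies on the minus strand at chr18:80966376-80986771 and had 7 WGBS regions with 8.65% of its 855 CpGs and 8 5hmC regions with 27.4%. The CpG-dense start site (343 CpGs within 2 kb) was nearly free of called regions. Only 2 of these CpGs (0.583%) were in a WGBS gain, at the edge of chr18:80988717-80989150, which went from 5.64% in Cre- to 11.5% in Tet tcKO, and none was in a 5hmC loss. No 5hmC loss lay in the 17,064 bp around the start site. The largest WGBS rises were farther away: chr18:80991695-80991855 in the upstream flank went from 34.1% to 53.4%, chr18:80975607-80976560 in intron 1 from 58.3% to 76.8%, and chr18:80970367-80970919 in intron 3 from 79.6% to 92.9%. All 5hmC regions lay at least 7,734 bp downstream of the start site. The largest falls were in intron 1 at chr18:80978017-80979037, from 14.6% to 2.70%, and in the downstream flank at chr18:80961655-80961989, from 17.6% to 5.74%, and the longest region, chr18:80968338-80971640, went from 13.9% to 3.86%.

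The share of CpGs in a WGBS gain differed between CpG-dense and CpG-poor start sites. The start sites of Thrb-201, Sall3, Olig2 and Dio3 had 3.87 to 8.57 CpGs per 100 bp within 2 kb, and 0% to 5.81% of these CpGs were in a WGBS gain. The start sites of TRβ2, Rxrg-202 and Dio2 had 0.90 to 1.47 CpGs per 100 bp and 35.6% to 52.8% of CpGs in a WGBS gain. The 3 upstream start sites of Rxrg lay between these groups in density, at 1.95 to 1.97 CpGs per 100 bp. Their share in a WGBS gain was 0%, within the range of the CpG-dense start sites. For 5hmC losses the CpG-dense start sites were not alike: 19.0% to 19.2% of the CpGs at the Dio3 start sites were in one, and 0% at Sall3 and Olig2. For the 171 5hmC regions, the Cre- level weighted by CpGs was 20.0% in the 58 regions under 1 CpG per 100 bp, 16.6% in the 87 regions with 1 to 3, and 8.91% in the 26 regions with 3 or more. Most of the sparsest regions are in Thrb. These are descriptions over few genes, and CpG density also affects how DMRs are called.

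By position, 7.17% of exonic CpGs, 6.81% of intronic CpGs and 6.35% of flank CpGs outside the start site windows were in a WGBS gain, and 6.97% inside the windows. For 5hmC losses the pooled shares differed more: 57.8% of exonic, 49.5% of intronic and 25.9% of flank CpGs, but 15.1% of the CpGs in the start site windows. These pools hold different genes, with 1,838 of the 2,510 intronic CpGs from Thrb. The window share was far below the exonic one at Thrb (23.6% against 74.6%) and Sall3 (0% against 68.4%). At Thrb this share pools unlike start sites, with 6.45% at the first and 97.2% at that of TRβ2, the latter above the exonic share. The window share was also below the exonic one at Dio2 (33.3% against 51.3%), where introns had 34.5%. It was not below the exonic one at Rxrg (52.2% against 48.9%), where introns had 63.3%. Dio3 had 18.9% in the windows and 18.3% in flanks.

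Other genes of thyroid hormone action were described beside the members. All 10 of those reported (Thra, Rxra, Rxrb, Dio1, Slc16a10, Slco1c1, Ncor1, Ncoa1, Med1 and Crym) had at least 1 WGBS gain and at least 1 5hmC loss in the locus, beside 76.2% and 88.8% of all genes. Of their 8,317 CpGs together, 17.7% were in a WGBS gain and 57.5% in a 5hmC loss, with medians over genes of 14.7% and 56.2%. The highest WGBS shares were at Thra (43.1%), which encodes the other thyroid hormone receptor, and at Rxra (37.1%), which encodes another retinoid X receptor.

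Other photoreceptor genes are set beside the members without a test, by the share over their pooled CpGs. In the loci of the rod fate factors Nrl and Nr2e3, 61.7% of CpGs were in a WGBS gain, and in those of the photoreceptor precursor factors Crx, Otx2 and Prdm1, 43.4%. The 9 cone phototransduction genes had 10.0% and the members 6.83%. The medians over genes were 61.4%, 45.9%, 6.39% and 6.09% in the same order, beside 6.44% over all genes. By their medians the cone phototransduction genes and the members were thus close to each other. For 5hmC losses the pooled shares were 71.7% at the rod factors, 55.1% at the precursor factors, 42.5% at the cone phototransduction genes and 38.2% at the members. Prdm1 (68.7%) carried the value of the precursor factors, with Crx at 35.2% and Otx2 at 33.1%. The median over genes was 35.2% for the precursor factors and 47.6% for the cone phototransduction genes, so that their order turns, and 33.1% for the members. Near the start sites, the pooled share in a WGBS gain was 100% for the rod factors, 31.8% for the precursor factors, 37.8% for the cone phototransduction genes (median over genes 18.9%) and 6.97% for the members (median 9.81%). The share in a 5hmC loss there was 53.7%, 17.2%, 72.7% and 15.1% in the same order, with a median over genes of 21.3% for the members. Over all genes, the median near start sites was 0% for WGBS gains, with an upper quartile of 13.0%, and 20.8% for 5hmC losses. By their medians the members were thus not low among all genes near start sites.

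Finally, sequence motifs were counted in 300 bp windows centred on the WGBS gains. The letters TAATCC, a core site of the photoreceptor factor CRX, occurred on either strand in 9 of the 43 windows at the members (20.9%) and in 15.3% of the windows of all 191,164 WGBS gains. All 9 were in Thrb, which holds 27 of the 43 regions. Among them were the 3 regions with the largest rises and the region upstream of the TRβ2 start site. Regions with small rises were also among them, such as chr14:17884949-17885025 (8.44 points) and chr14:18020345-18020846 (10.8 points). The windows were not matched for CpG density, which is low at Thrb. The letters AGGTCA, a half-site of nuclear receptors including TRβ and RXRγ, occurred on either strand in 12 windows (27.9%) and in 19.6% of all windows. They were at Thrb (7 windows), Dio2 (2), Sall3 (2) and Rxrg (1), the last within the sequence printed above. A match of letters is a description and not evidence of binding.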

How the data were processed

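Genomic DNA of P21 whole retina was profiled by both assays, in 3 libraries per group and assay. Per the study's methods and the submitters' processing notes, the authors trimmed reads with Trim Galore (0.4.4), aligned them to mm10 with Bismark (0.18.2), extracted CpG levels with MethylDackel (0.6.1) and called DMRs with DSS, which smooths levels between neighbouring CpGs. The deposited lists give each DMR's position, number of CpGs and 1 mean level per group, and the authors' means are a fraction from 0 to 1, printed here as percent. The deposited differences and area statistics were not used.

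Changes were computed as Tet tcKO minus Cre-. Bounds, read as 1-based positions, lay on the C of a CpG of GRCm38 in 100% of DMRs. Loci and start sites came from the GENCODE M21 basic annotation (32,093 protein-coding and long noncoding genes), sequences from the RefSeq GRCm38 genome. Overlap needed 1 bp, and means over regions were weighted by CpGs. The counting of overlaps was tested on simulated intervals. Python (3.11.15), pandas (2.3.3) and numpy (2.4.6) were used. No test was run, since replicate values and depth were not analysed here.

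For each member, the regions named are all WGBS regions where there are 5 or fewer, otherwise those near a start site and the 3 with the largest change, and of the 5hmC regions those over a start site, the 2 with the largest change and the longest. The intron 2 sequence of Thrb was added after its values were seen. A few genes of the thyroid hormone list and 1 region of a member are not reported here, for a reason unrelated to their values, and the list was counted without those genes. The members, the gene lists and these rules were chosen with earlier results of these data known. The alternatives were other flanks, start site windows and region filters, assignment by midpoint, unweighted means and leaving out Thrb.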

Additional observations from a re-analysis of the deposited data

How the results depend on the processing

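Neither assay's mean change reversed direction under any alternative run. A reversal was hardly possible, since 98.6% of all WGBS regions are higher and nearly all 5hmC regions lower in Tet tcKO. The limit used to judge a share was its exact binomial 95% interval over CpGs, and for a level the SD over regions, since replicates were not available. Counts were held to 1.5 times. CpGs of 1 region are called together, so the intervals for shares are too narrow, whereas the limits for levels are wide. How many values moved therefore depends on these limits, which do not measure the spread between libraries. Of 146 recomputed values 100 stayed within these limits, and all mean changes and the share of 5hmC kept did. Of the 46 that moved, 28 were shares of single loci.

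Requiring at least 10 CpGs left 11 WGBS gains and 66 5hmC losses, with 3.04% and 24.96% of the CpGs of the loci, and 4.80% of the CpGs near start sites in a WGBS gain. Requiring a difference of at least 10 percentage points left 5.84% and 23.4% of the CpGs of the loci and 5.57% and 8.05% near start sites. Without flanks, 45.5% of CpGs were in a 5hmC loss. With flanks of 20 kb the shares were 8.35% and 39.6%, and 1 WGBS region was lower in Tet tcKO. Without Thrb, 16 WGBS gains and 60 5hmC losses remained, the latter with 31.3% of CpGs. A start site window of 1 kb gave 5.39% for WGBS gains and one of 5 kb gave 18.9% for 5hmC losses.

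Among single loci, Dio2 had the largest share in a WGBS gain under every alternative run (9.58% with at least 10 CpGs to 27.5% without flanks), but Rxrg lost the largest share in a 5hmC loss to Thrb (27.9% against 40.6%) when a difference of 10 percentage points was required. That filter left no 5hmC loss at Olig2 or Dio3 and 5.03% at Sall3. With at least 10 CpGs, Thrb kept 1.45% in a WGBS gain. With flanks of 20 kb, Olig2 had 9.49% and 28.1% and Dio3 11.6% and 36.3% in a WGBS gain and a 5hmC loss, and without flanks Dio3 had 0% and 46.3%.

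No paired analysis was possible because the lists hold 1 mean per group, and for the same reason no replicate was left out. The lists give neither depth nor conversion, so the precision of levels from 4 to 7 CpGs at Thrb and of levels near 0 at Dio3 is unknown.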
